A study of Homo sapiens with 24 samples.

Results

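The BCL2 family decides at the outer mitochondrial membrane whether a stressed cell lives or dies. The 9 genes described here were taken from a list of symbols: the survival genes BCL2L1 and MCL1, the pore-forming death genes BAX and BAK1, the BH3-only death genes BAD, BID and BCL2L11, and the less typical members BCL2L12 and BCL2L13. Each symbol was matched to its Ensembl identifier, and all 9 were among the 12285 genes of the expression table. The cells were K562, an established human line from a chronic myeloid leukaemia in blast crisis that carries the BCR-ABL1 fusion, grown in RPMI with 10% bovine calf serum and P/S. Populations were synchronized by centrifugal elutriation, which sorts cells by size, and RNA was sequenced at steps of 2 h over 46 h, giving 24 time points with 1 sample each. All samples share the line, the medium and the elutriation, so time is the only variable. There were no replicates and no unsynchronized control, and what separates 2 neighbouring time points includes any error of a single library.

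Values are FPKM, fragment counts scaled to transcript length and to the size of the library, a unit per length in which levels of different genes can be set side by side. Each gene in the table has at least 1 FPKM at 12 or more time points. The study names 16 h and 18 h as anomalous time points, and 32 h as a milder one. Summed FPKM was 566247 at 16 h and 591309 at 18 h, above the 456791 to 520382 of the other 22 time points, and the trend and rhythm tests were therefore run with and without these libraries. All 12 erythroid markers listed for K562 were in the table, with a summed level of 4270 to 9290 FPKM per time point. Of the markers of other cell types, 1 of 5 fibroblast genes (COL1A2, at 1.70 to 3.94 FPKM) and 0 of 4 monocyte genes were in the table. In bulk RNA, a change in the share of cells that express a gene and a change in the RNA per cell cannot be told apart.

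In healthy cells BCL-xL, encoded by BCL2L1, and MCL-1 hold the death proteins in check. BH3-only proteins sense damage or loss of growth signals and occupy the survival proteins or switch on BAX and BAK, which then perforate the membrane and release cytochrome c to start the caspase cascade. MCL-1 is short-lived as RNA and as protein and so follows transcription closely, whereas BCL-xL is long-lived and is the survival protein on which erythroid cells chiefly rely. These properties of the proteins are background: only RNA was measured, and gene-level FPKM does not separate the long and short isoforms of MCL1, BCL2L1 or BCL2L11, some of which act in opposite ways.

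Promoter sequences were available from RefSeq for 8 of the 9 genes, and MCL1 had no entry. The 250 bases before the start were searched on both strands for 8 motifs. The E-box, the site of CLOCK-BMAL1 and MYC, was searched as CACGTG. The GC box, bound by SP1, was searched as GGGCGG. The CCAAT box, bound by NF-Y, was searched by the letters of its name. For the TATA box the letters were TATAAA. The cAMP response element was searched as TGACGTCA. For a STAT site, the one used by JAK signalling, the letters were TTCNNNGAA. The site of erythroid GATA factors was searched as AGATAA. The CArG box of serum response factor was the last. Of these motifs, no pair shared a base in the windows printed here. The 3 windows shown are those of BCL2L1 and BID, the genes with a trend over the time course, and of BAX, the 1 member with an E-box. Capitals mark the motif matches, and each sequence reads 5′ to 3′ towards the gene.
BCL2L1, GRCh38.p14 chr20:31723964-31724213, minus strand: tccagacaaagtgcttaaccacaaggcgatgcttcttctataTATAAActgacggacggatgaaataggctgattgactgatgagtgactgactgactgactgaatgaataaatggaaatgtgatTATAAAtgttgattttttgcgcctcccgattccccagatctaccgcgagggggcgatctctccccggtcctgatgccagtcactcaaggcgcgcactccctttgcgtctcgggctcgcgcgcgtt
BID, GRCh38.p14 chr22:17774470-17774719, minus strand: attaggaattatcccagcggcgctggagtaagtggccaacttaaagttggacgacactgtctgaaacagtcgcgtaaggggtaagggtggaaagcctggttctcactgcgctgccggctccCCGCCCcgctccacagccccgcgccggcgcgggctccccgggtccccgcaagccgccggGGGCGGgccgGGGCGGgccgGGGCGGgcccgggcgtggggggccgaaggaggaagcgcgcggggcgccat
BAX, GRCh38.p14 chr19:48954625-48954874, plus strand: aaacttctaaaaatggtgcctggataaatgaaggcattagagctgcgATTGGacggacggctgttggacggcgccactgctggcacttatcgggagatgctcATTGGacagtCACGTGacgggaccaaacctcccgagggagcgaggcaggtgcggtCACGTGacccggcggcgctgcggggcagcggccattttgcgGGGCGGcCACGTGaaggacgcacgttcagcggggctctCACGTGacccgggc
The BCL2L1 window held 2 TATAAA matches, a motif present in 11.1% of 27305 promoter windows of this length. The BID window held 4 GC boxes, against 42.3% of all windows with at least 1. The BAX window held 4 E-boxes, at 138, 93, 45 and 14 bases before the start, besides 1 GC box and 2 CCAAT matches, and 6.49% of all windows held an E-box. The other windows held CCAAT or GC boxes (BAK1, BAD and BCL2L11) or none of the motifs searched (BCL2L12 and BCL2L13), CCAAT being present in 33% of all windows. A match is a run of letters and was not tested for binding.

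**Figure D1:**
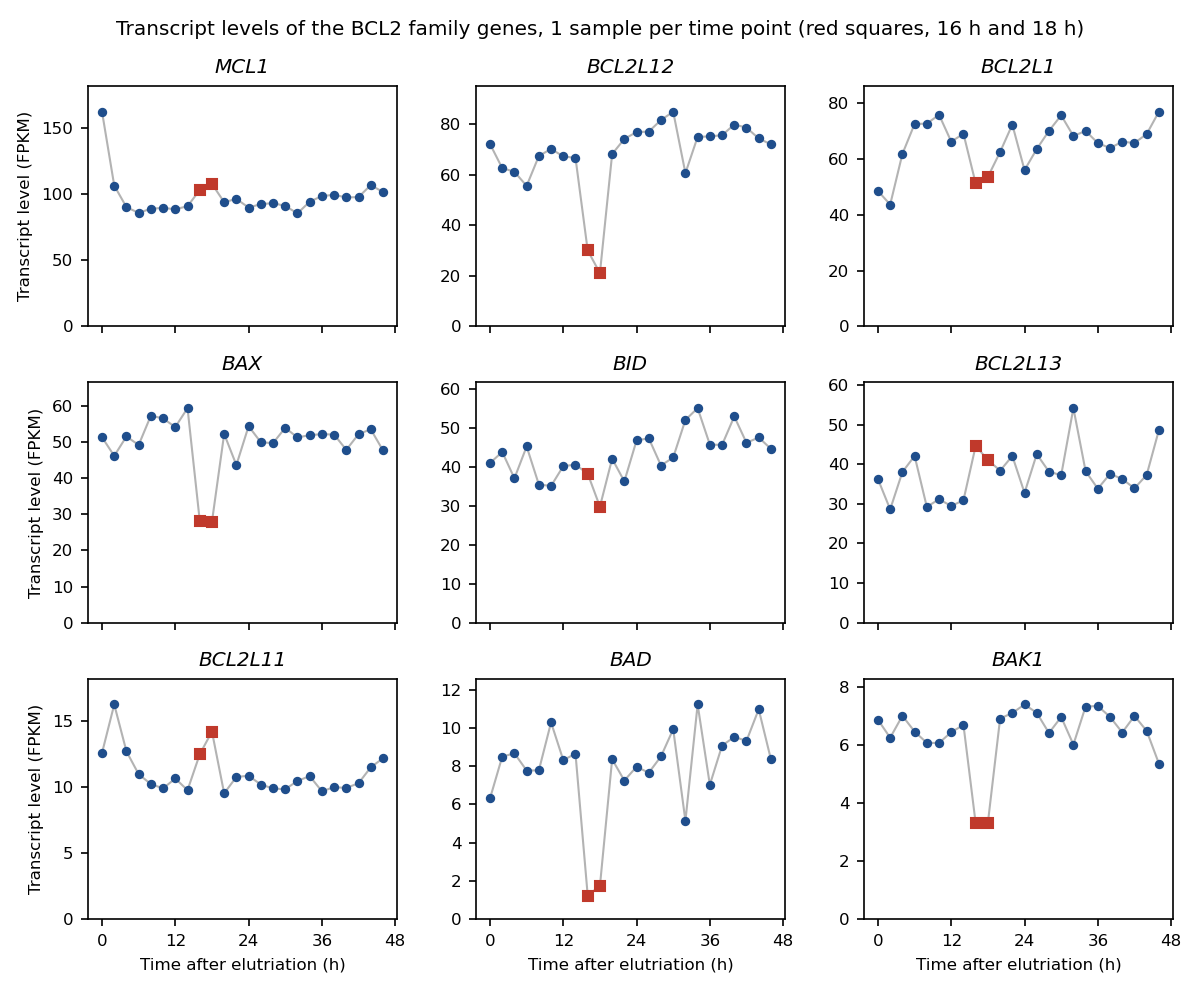
Transcript level (FPKM, linear axes from 0, each panel with its own scale) against time after elutriation (h) for the 9 genes, in order of median level. Each point is 1 sample and red squares are 16 h and 18 h, where BCL2L12, BAX, BAD and BAK1 lie below all of their other 22 values; MCL1 is highest at 0 h at 162 FPKM.

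The survival genes were among the more abundant transcripts of the family and the pore and BH3-only genes spread over a wider span. MCL1 was highest, at 85.5 FPKM at its lowest time point (32 h), 94.2 FPKM at the median and 162 FPKM at its highest (0 h). BCL2L12 followed with a median of 72.2 FPKM, from 21.1 FPKM at 18 h to 85.0 FPKM at 30 h. BCL2L1 had a median of 66.2 FPKM, from 43.7 FPKM at 2 h to 77.0 FPKM at 46 h. For comparison, the median gene of the table had a median of 13.4 FPKM, and MCL1 lay above 91.6% of genes.

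Of the 2 pore-forming genes, BAX was the abundant one. BAX had a median of 51.7 FPKM, with a lowest value of 27.9 FPKM at 18 h and a highest of 59.3 FPKM at 14 h. BAK1 had a median of 6.59 FPKM, from 3.30 FPKM at 16 h to 7.40 FPKM at 24 h, and was the lowest of the 9. Outside 16 h and 18 h and from 4 h on, the BAX level was 6.13 to 9.42 times that of BAK1 (median 7.57, 20 time points). The proteins are known to stand in for each other in many cells.

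The BH3-only genes differed in level as well. BID, whose protein is cut by caspase-8 and carries the death receptor signal to mitochondria, had a median of 43.1 FPKM, from 29.8 FPKM at 18 h to 55.1 FPKM at 34 h. BCL2L11, which encodes BIM, a BH3-only protein that kinase signalling from BCR-ABL1 is known to keep low, had a median of 10.5 FPKM, from 9.51 FPKM at 20 h to 16.2 FPKM at 2 h. BAD, which binds BCL-xL when it is not phosphorylated, had a median of 8.36 FPKM, from 1.23 FPKM at 16 h to 11.2 FPKM at 34 h. BCL2L13, a mitochondrial membrane protein known as a mitophagy receptor, lay between them at a median of 37.4 FPKM, from 28.6 FPKM at 2 h to 54.2 FPKM at 32 h.

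Neighbours in this order were separated to different degrees. MCL1 was above BCL2L12 at 24 of 24 time points and BCL2L13 above BCL2L11 at 24 of 24, and neither pair of ranges overlapped over the 22 time points without 16 h and 18 h. BCL2L12 was above BCL2L1 at 15 of 24 time points, and their ranges and their quartiles overlapped, so this pair did not differ beyond its spread. The remaining pairs overlapped in range but not in quartiles: BCL2L1 was above BAX at 22 of 24 time points, BAX above BID at 19, BID above BCL2L13 at 18, BCL2L11 above BAD at 21, and BAD above BAK1 at 19. Over the 22 time points, the coefficient of variation was lowest for BAX at 7.02% and BAK1 at 7.73% and highest for BAD at 16.9%, BCL2L13 at 16.8% and MCL1 at 16.1%, beside a median of 14.2% for all genes. For 3 genes the level may include reads of another gene in the table. Exons of GPR137 (median 22.5 FPKM) overlap those of BAD, MIR4435-2HG (46.3 FPKM) those of BCL2L11, and IRF3 (49.8 FPKM) those of BCL2L12, each on the opposite strand. Exons of genes not in the table overlap those of MCL1 (ADAMTSL4-AS1, same strand), BCL2L1 (ABALON, opposite strand) and BAK1 (GGNBP1, opposite strand). Whether reads were counted by strand is not given in the sources used here.

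The first samples after elutriation differed from the rest in both survival genes, in opposite directions. The first 3 samples held 162, 107 and 90.2 FPKM of MCL1. At the same hours (0 h, 2 h and 4 h) BCL2L1 was at 48.6, 43.7 and 61.8 FPKM, and at 6 h at 72.6 FPKM. MCL1 was thus highest, and BCL2L1 close to its lowest, in the first sample. Each gene was set against the median of its other time points without 16 h and 18 h, as a ratio of FPKM + 1. On this measure MCL1 at 0 h was at 1.73 times its median, while BCL2L1 was at 0.715 times at 0 h and 0.645 times at 2 h. BCL2L11, the transcript of the death protein BIM, had 12.6, 16.2 and 12.7 FPKM at 0 h, 2 h and 4 h. Its highest time point was thus 2 h, at 1.53 times its median on the same measure.

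These comparisons were chosen after the values were seen and have no replicate, so no test is given. At 0 h, 1 of the 9 genes (MCL1) was 1.5-fold or more from its median, where 4.02% of all genes were. At 2 h, 2 of the 9 (BCL2L1 and BCL2L11) were, against 7% of all genes. None of the 9 was 2-fold from its median at either hour. A cycle later, at 24 h and 26 h, MCL1 was at 89.9 and 92.5 FPKM and BCL2L11 at 10.8 and 10.2 FPKM, while BCL2L1 was at 56.0 and 63.6 FPKM, with 24 h its lowest value after 2 h outside the anomalous pair.

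The balance of the 2 survival transcripts follows from these values. The ratio of MCL1 to BCL2L1 in FPKM was 3.34, 2.44, 1.46 and 1.18 in the first 4 samples. Over the 20 time points from 4 h on, without 16 h and 18 h, it lay between 1.18 and 1.60 with a median of 1.34, so the first 2 values stood above all of these. The highest of the 20 was that at 24 h. At 16 h and at 18 h the ratio was 2.01. The ratio of BCL2L1 to BCL2L11 lay between 4.88 and 7.71 over the same 20 time points (median 6.56). It was below this range at 0 h (3.86), 2 h (2.69), 16 h (4.11) and 18 h (3.78), and at 24 h it was 5.17.

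**Figure D2:**
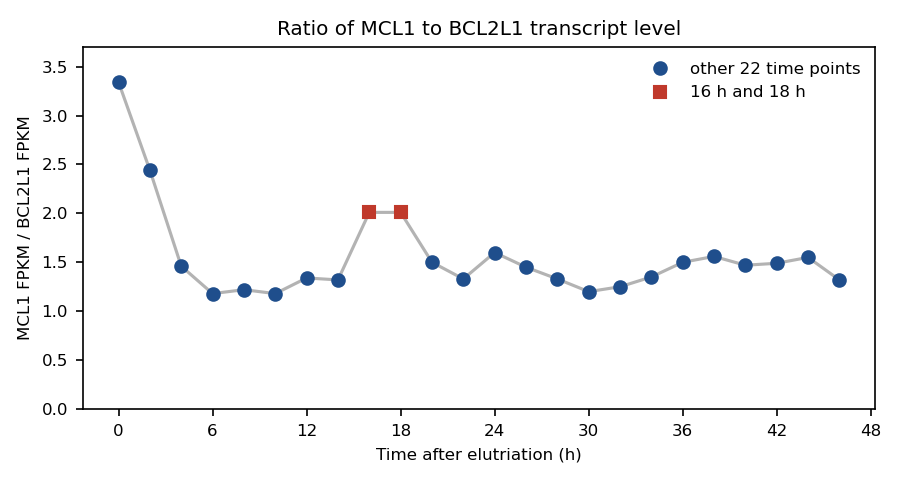
Ratio of MCL1 to BCL2L1 transcript level (FPKM over FPKM) against time after elutriation (h), 1 sample per point. The ratio is 3.34 at 0 h and 2.44 at 2 h, and 1.18 to 1.60 from 4 h on except at 16 h and 18 h (red squares, 2.01).

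Over the 46 h, BID and, less steadily, BCL2L1 were called as rising. The trend is the slope of log2(FPKM + 1) per 24 h in limma with the 24 h cosine and sine as covariates, with Benjamini-Hochberg adjustment over all 12285 genes. It called 2 of the 9 genes, both rising, beside 22.3% of all genes in either direction and 13.5% rising. BID rose by 0.24 ± 0.06 (SE, n = 24) on the log2 scale per 24 h, with an adjusted p of 0.0106 in limma. BCL2L1 rose by 0.20 ± 0.07 (SE, n = 24), with an adjusted p of 0.0324 in limma. The test treats time points as independent, while the correlation of residuals between neighbouring samples was -0.07 for BID and 0.30 for BCL2L1.

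The rise of BID was seen across the 2 days. Its level had a median of 39.2 FPKM over the first 12 time points and of 46.5 FPKM over the last 12, and was higher on the second day at 11 of 12 matching hours. Paired by hour, the second day minus the first was 0.28 ± 0.07 on the log2 scale (adjusted p = 0.0146 in limma). Every sample from 8 h to 22 h was at or below 42.1 FPKM, and all 8 samples from 32 h to 46 h were above this value. These windows were chosen after the values were seen, and 2 h and 6 h, at 43.8 and 45.2 FPKM, and 28 h, at 40.3 FPKM, did not follow them. Without 16 h and 18 h the slope was 0.19 ± 0.06 (SE, n = 22, adjusted p = 0.0147 in limma), and the call held in all 13 other settings tried (adjusted p from 0.0024 to 0.0281) and without each single time point (0.00629 to 0.0226).

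The rise of BCL2L1 rested on its first samples. Without 0 h and 2 h the slope was 0.11 with an adjusted p of 0.208 in limma. Without 16 h and 18 h it was 0.16 ± 0.07 (SE, n = 22) with an adjusted p of 0.0631. Without 0 h, 2 h, 16 h and 18 h it was 0.04 (adjusted p = 0.612 in limma). The call held in 4 of the 13 other settings tried. The call was also lost when any 1 of 0 h, 2 h, 16 h, 30 h, 44 h or 46 h was left out (adjusted p of 0.0503 to 0.0967). Its median was 64.4 FPKM on the first day and 67.3 FPKM on the second, and the second day was higher at 8 of 12 hours.

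Without 16 h and 18 h, 32.1% of all 12285 genes passed the test in either direction, and 2403 of them rose. Of the 9 genes, 3 rose in this fit. Besides BID, these were BCL2L12 at 0.15 ± 0.05 (SE, n = 22, adjusted p = 0.0299 in limma) and BCL2L13 at 0.24 ± 0.07 (SE, n = 22, adjusted p = 0.0162). Over all 24 time points the same genes had slopes of 0.38 ± 0.14 (adjusted p = 0.0574) and 0.16 ± 0.08 (adjusted p = 0.149), and were not called. BCL2L12, an atypical member described as a brake on effector caspases in glioma cells, had a median of 67.1 FPKM on the first day and 76.4 FPKM on the second and was higher on the second day at 10 of 12 hours. For BCL2L13 the 2 medians were 37.1 and 37.4 FPKM, and the 54.2 FPKM at 32 h and the 48.6 FPKM at 46 h were its highest values.

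The slopes of the other 5 genes did not pass the test in either fit. Over all 24 time points they were -0.08 ± 0.06 for MCL1, 0.11 ± 0.09 for BAX, 0.13 ± 0.09 for BAK1, 0.39 ± 0.20 for BAD and -0.13 ± 0.06 for BCL2L11 (adjusted p from 0.125 to 0.392 in limma). Without 16 h and 18 h those of BAX, BAK1 and BAD were -0.04, -0.01 and 0.06, with confidence intervals of -0.12 to 0.05, -0.11 to 0.09 and -0.12 to 0.25 on the log2 scale. For MCL1 the sign depended on the first samples: without 0 h, 2 h, 16 h and 18 h, a set of time points chosen after the values were seen, its slope was 0.08 ± 0.03 with an adjusted p of 0.0428 in limma. The median slope was 0.16 over the 9 genes and -0.01 over all genes, and 0.06 and 0.02 without 16 h and 18 h.

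**Figure D3:**
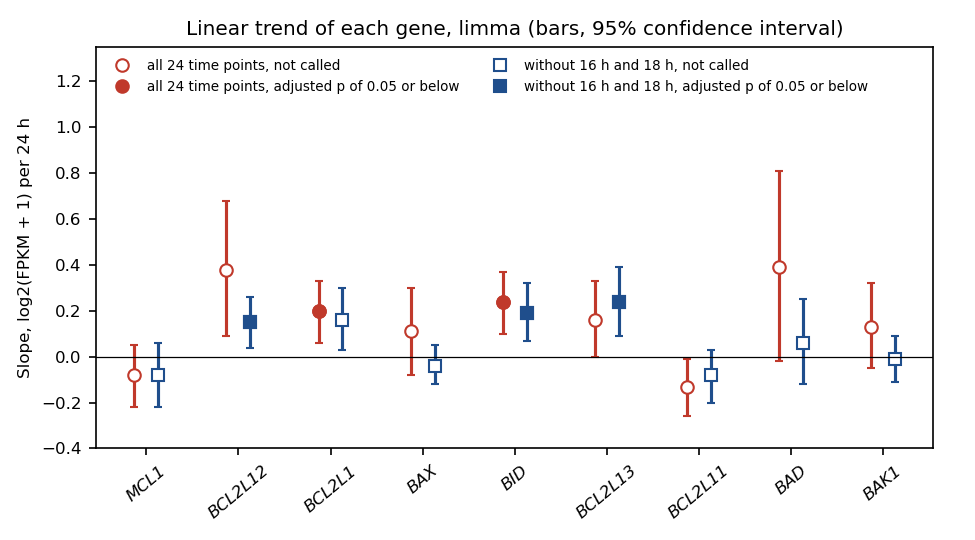
Slope of log2(FPKM + 1) per 24 h for each gene, with bars for the 95% confidence interval, over all 24 time points (red circles) and without 16 h and 18 h (blue squares); filled symbols have an adjusted p of 0.05 or below in limma. BID is called in both fits, BCL2L1 only in the first and BCL2L12 and BCL2L13 only in the second.

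Of the 9 genes, MCL1 alone was called for a 24 h rhythm. The JTK statistic compares the order of the values with that of a cosine at 12 phases, with a permutation p adjusted over all genes, and called 13% of all genes. For MCL1 Kendall's tau was 0.54 with the peak at 20 h (permutation p = 0.00273, adjusted p = 0.0300). The cosine fit gave an amplitude of 0.14 on the log2 scale with a peak at 20.5 h, and did not pass the test (adjusted p = 0.110 in limma). Its residuals had a correlation of 0.45 between neighbouring samples, while the permutation treats time points as exchangeable. MCL1 was at 85.9 to 90.9 FPKM from 6 h to 14 h and at 94.0 and 96.5 FPKM at 20 h and 22 h, then at 85.5 FPKM at 32 h and 107 FPKM at 44 h, so the excursions were a small part of its level.

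The rhythm call of MCL1 depended on single samples. It held without 16 h and 18 h (adjusted p = 0.0414, permutation test, in which 1 of the 9 genes and 17% of all genes were called) and without 0 h and 2 h (adjusted p = 0.0157). It was lost without each of 4 h, 6 h, 8 h, 10 h, 18 h, 32 h and 44 h (adjusted p of 0.0512 to 0.0729), after removal of the trend with GC content (0.186) and on the cleaned scores (0.0904). At periods of 20 h and 28 h the adjusted p was 0.0833 and 0.306. The other 8 genes had adjusted p-values from 0.277 (BCL2L11) to 0.996 (BID) in the permutation test.

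At 16 h and 18 h, BAX, BAK1, BAD and BCL2L12 were lower than at any of the other 22 time points, whereas MCL1 and BCL2L11 were above the level of the samples on either side. From 14 h to 20 h BAD was at 8.66, 1.23, 1.73 and 8.37 FPKM, and BCL2L12 was at 66.8, 30.1, 21.1 and 68.3 FPKM. BAX was at 59.3, 28.2, 27.9 and 52.2 FPKM, and BAK1 at 6.69, 3.30, 3.32 and 6.91 FPKM. In each of these the level had returned by 20 h, and 19.7% of all genes were likewise lower at both hours than at all others. MCL1 was at 90.9, 103, 108 and 94.0 FPKM, and BCL2L11 at 9.75, 12.5, 14.2 and 9.51 FPKM, while BCL2L1 was at 69.1, 51.3, 53.6 and 62.5 FPKM.

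As a mean log2 deviation from the line between 14 h and 20 h, BAD lay at -1.94, BCL2L12 at -1.39, BAX at -0.96, BAK1 at -0.86, BCL2L1 at -0.32 and BID at -0.28, and MCL1 lay at 0.19, BCL2L13 at 0.31 and BCL2L11 at 0.43. Of the 9 genes, 2 were 2-fold or more below the line, where 7.11% of genes were, and 0 were 2-fold or more above it, where 8.95% were. The same measure at 16 other pairs of neighbouring time points spanned -0.40 to 0.48 for BAD and -0.12 to 0.16 for BAX. For 8 of the 9 genes the deviation lay outside its own 16 pairs, as it did for 71.6% of all genes, the exception being BCL2L13 (pairs from -0.34 to 0.45). BID was just outside, at -0.28 against a lowest pair of -0.27. There is 1 sample at each hour and no test.

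The GC content of the transcripts moved with these deviations. BAD, at 66.3% GC in its longest annotated transcript, was the most GC-rich of the 9 and deviated most, followed by BCL2L12 at 59.1%, BAX at 58.9%, BAK1 at 58.8% and BCL2L1 at 56.9%. The 3 genes above the line, MCL1 at 45.1%, BCL2L11 at 45.7% and BCL2L13 at 47.7%, had the lowest GC content. BID, at 49.7% GC, lay between these groups in GC content and in deviation. It departed from genes of similar GC content, which had a median deviation of 0.13, while BID lay below the line. Genes of similar GC content had a median of -0.69 for BAD and of -0.40 for BCL2L12, BAX and BAK1. These members thus lay further below the line than such genes. For BCL2L1, at -0.32, that median was -0.27. Among the 3 above the line, MCL1 had the lowest GC content and the smallest deviation. Over all genes with a known GC content, the median deviation ran from 0.55 in the tenth with the lowest GC to -0.69 in the tenth with the highest. With the trend on GC removed in each sample, BAD lay at -1.14, BCL2L12 at -0.99, BAX at -0.58, BAK1 at -0.48 and BID at -0.38, while BCL2L1 was at -0.03 and MCL1 at -0.11. The sign for MCL1 thus changed with the scaling, and it did so under upper-quartile scaling too (-0.04). The part of GC content in the deviations was not otherwise tested. At 32 h, the milder anomalous time point, BAD was at 5.14 FPKM and BCL2L13 at 54.2 FPKM, the lowest and the highest value of each outside 16 h and 18 h.

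**Figure D4:**
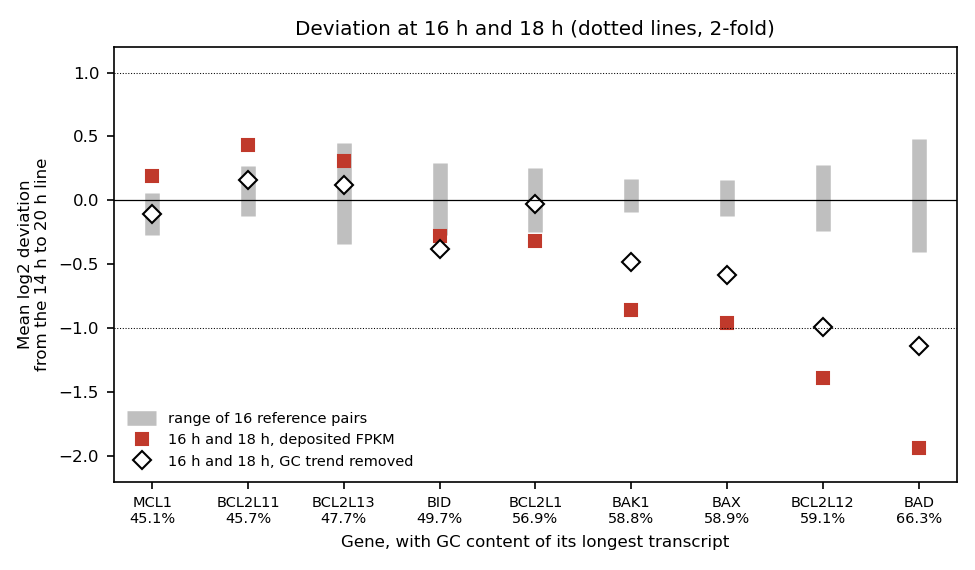
Mean log2 deviation at 16 h and 18 h from the line between 14 h and 20 h for each gene, ordered by GC content of the longest transcript, on deposited FPKM (red squares) and with the GC trend removed (open diamonds); grey bars are the range of 16 other pairs of time points. BAD and BCL2L12 lie more than 2-fold below the line on deposited FPKM, and the 3 genes lowest in GC lie above it.

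The count of family pairs that looked alike also differed with and without the 2 anomalous samples. Among the 36 pairs of the 9 genes, 6 had a Pearson r of log2(FPKM + 1) of at least 0.8 over all 24 time points and 0 did over 22 time points, where r ran from -0.65 to 0.44. All pairs share their libraries, so these values are descriptions. The share of all gene pairs that reach this r was not computed, so the counts cannot be read as a trait of the family.

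The genes most like each member over the 22 time points were sought where the mean level reached 10 FPKM. For MCL1 they were IER2 (r = 0.91), EGR1 (r = 0.91) and SUN1 (r = 0.86), and the first 2 are immediate early genes that serum and growth factors induce within minutes. In the samples of 0 h, 2 h and 4 h, EGR1 had 242, 8.93 and 8.97 FPKM and IER2 had 164, 33.4 and 33.5 FPKM. EGR1 had a median of 6.71 FPKM over the 20 later time points without 16 h and 18 h, so it reached the mean of 10 FPKM only through 0 h. The likeness of both rested largely on that sample, and without 0 h and 2 h (20 time points) r with MCL1 was 0.44 for EGR1 and 0.66 for IER2. For BCL2L1 they were ICAM2 (r = 0.87), JAK2 (r = 0.86) and TOMM40L (r = 0.85), each low in the first 2 samples as well, at 21.2 and 18.5, 11.6 and 8.81, and 9.96 and 8.38 FPKM, and r fell to 0.57, 0.57 and 0.49 without these. For BCL2L11 they were H2BC4 (r = 0.87), EFR3A (r = 0.86) and MARCHF3 (r = 0.83), and r over 20 time points was 0.78, 0.77 and 0.77.

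For BID the most alike were LARGE2 (r = 0.85), GAMT (r = 0.84) and RAC3 (r = 0.83), with 0.88, 0.85 and 0.84 without the first 2 samples. For BCL2L12 they were NIBAN2 (r = 0.93), SELENOW (r = 0.91) and CCDC28B (r = 0.89), and for BCL2L13 KIF2A (r = 0.87), LEPROTL1 (r = 0.87) and NT5C2 (r = 0.85). BAX, BAK1 and BAD had no gene with r of 0.8 or more: the closest were MRPL12 (r = 0.79), PAXX (r = 0.78) and TUBGCP2 (r = 0.75) for BAX, RBMXL1 (r = 0.71), TOR3A (r = 0.69) and CDC25A (r = 0.69) for BAK1, and MAD2L2 (r = 0.74), AP2S1 (r = 0.72) and HBE1 (r = 0.69) for BAD. With all 24 time points the highest r with another gene was 0.97 for BAX, 0.96 for BAK1 and 0.95 for BAD.

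Other members of the family were read from a list of 17 genes, of which 8 were in the table. For the counts of this and each later list over 24 time points, 13.5% of all genes rose, 8.80% fell and 13% had a rhythm. BCL2 itself, BCL2A1, BCL2L10, BCL2L14, BCL2L15, BOK, BMF, BIK and HRK were not in the table. BCL2L2, the survival gene that encodes BCL-w, rose by 0.25 ± 0.08 per 24 h on the log2 scale (adjusted p = 0.0323 in limma), while its slope was 0.15 with an adjusted p of 0.0761 without 16 h and 18 h. BNIP3, a mitophagy gene of hypoxia, fell by 0.44 on the log2 scale per 24 h (adjusted p = 0.0144), and BNIP1 fell by 0.22 (adjusted p = 0.00847). For a 24 h rhythm 3 of the 8 were called by the permutation test: BCL2L2-PABPN1 (tau 0.77, peak at 6 h, adjusted p = 0.00178), PMAIP1 (tau 0.62, peak at 20 h, adjusted p = 0.00951) and BNIP2 (tau 0.53, peak at 18 h, adjusted p = 0.0349). Of these, BNIP2 lay 0.56 log2 above the line at 16 h and 18 h and was not called without these samples (adjusted p = 0.0809, permutation test). BCL2L2-PABPN1 is a read-through transcript that shares exons with BCL2L2, so the values of both are uncertain. PMAIP1 encodes NOXA, the BH3-only protein that binds MCL-1, and it had the same peak phase as MCL1, at 8.85 to 28.6 FPKM with a median of 15.0 over the 22 time points.

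Among 15 partners and regulators, all in the table, 4 fell and 0 rose in limma (2 had a rising slope at an unadjusted p under 0.05, and 0 were called as higher on the second day by the paired fit). BAG1, a BCL2-binding co-chaperone, fell by 0.17 per 24 h (adjusted p = 0.00301), BCLAF1 fell by 0.34 (adjusted p = 0.00707), and YWHAQ, a 14-3-3 protein of the kind that holds phosphorylated BAD in the cytosol, fell by 0.24 (adjusted p = 0.0281). PIM2, a kinase that phosphorylates BAD, was called for a rhythm (tau 0.63, peak at 12 h, adjusted p = 0.00883, permutation test). In this list VDAC1 and HUWE1, the MCL-1 ubiquitin ligase also known as MULE, lay at 1.09 and 1.23 log2 above the line at 16 h and 18 h.

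Of 15 genes of the apoptosome, the caspases and the proteins that mitochondria release, all in the table, 3 rose and 1 fell. Among them, CASP10 rose by 0.35 ± 0.08 per 24 h (adjusted p = 0.00187 in limma) and CASP6 by 0.23 ± 0.05 (adjusted p = 0.00143). DIABLO, which encodes the IAP antagonist SMAC, fell by 0.20 (adjusted p = 0.0263 in limma). Without 16 h and 18 h, 6 of the 15 rose and 3 fell, where 2403 of all 12285 genes rose and 1536 fell. HTRA2 (tau 0.73, peak at 6 h, adjusted p = 0.00178), DFFB (tau 0.54, peak at 12 h, adjusted p = 0.0300) and APAF1, the scaffold of the apoptosome (tau 0.51, peak at 18 h, adjusted p = 0.0496), were called for a rhythm by the permutation test. APAF1 lay 1.06 log2 above the line at 16 h and 18 h, and its rhythm was not called without these samples (adjusted p = 0.1, permutation test).

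Of 6 inhibitor of apoptosis genes, 5 were in the table (BIRC3 was not) and 2 rose. CFLAR, which encodes FLIP, the brake on caspase-8, rose by 0.48 ± 0.08 per 24 h (adjusted p = 0.00019 in limma), from 13.1 FPKM at its lowest to 39.3 FPKM at its highest over the 22 time points. BIRC5, the mitotic gene of survivin, rose by 0.22 ± 0.08 (adjusted p = 0.0426), while its slope was 0.16 with an adjusted p of 0.101 without 16 h and 18 h. Of 7 death receptor and adaptor genes, 6 were in the table (FAS was not), of which 2 rose and 1 fell. TNFRSF1A rose by 0.44 ± 0.08 per 24 h (adjusted p = 0.000505 in limma), TNFRSF10A, a receptor of TRAIL, rose by 0.29 ± 0.07 (adjusted p = 0.00469), and RIPK1 fell by 0.24 (adjusted p = 0.0158). In these last 2 lists, 0 genes were called for a rhythm by the permutation test and 0 by the limma cosine, with 0 inhibitor and 1 receptor gene at an unadjusted permutation p under 0.05. Of the inhibitors, 0 fell in limma or in the paired fit, with 1 falling slope at an unadjusted p under 0.05.

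Over the 5 lists together, 8 of 49 genes rose, 8 fell and 7 were called for a rhythm, where 13.5% of all genes rose, 8.80% fell and 13% had a rhythm. Without 16 h and 18 h the counts were 10, 10 and 12. Of all 12285 genes, 2403 rose, 1536 fell and 17% had a rhythm without these samples. Of the list genes named above, the calls lost without these samples were the trends of BCL2L2 and BIRC5 and the rhythms of BNIP2 and APAF1. The median slope of the 49 genes was -0.02, beside -0.01 over all genes. CASP8, which cuts BID, had a slope of -0.02 over all time points (adjusted p = 0.946 in limma) and rose by 0.23 (adjusted p = 0.00442) without 16 h and 18 h.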

How the data were processed

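RNA-seq of 24 K562 samples, 1 per time point, was analysed. Groups and table columns were taken from the sample labels, and 0 columns of per-sample values were left unused. The authors aligned reads with STAR and quantified and normalized them with Cufflinks2 and Cuffnorm, and the submitters' processing notes name GRCh37. Tool versions and the annotation are not given in the sources used here. The deposited FPKM values were used as they stand. The second deposited table holds a score per gene, converted by the authors to Z-scores and quantile normalized, and was used as an alternative only. At most 24.9% of low FPKM values lay within 0.1 of a whole read, where 20% would with no steps, so reads were not recovered, depth is unknown and count models were not used.

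Trends were fitted with limma 3.58.1 (R 4.3.3) using eBayes with a mean trend on log2(FPKM + 1), which understates changes of low genes. The JTK statistic used 100000 orderings of the time points. Both were adjusted over all 12285 genes, called at 0.05, and tested on simulated data. The simulated noise was independent between time points and held no anomalous libraries, so the effect of either on the calls was not tested there. The deviation at 16 h and 18 h used the 12253 genes whose mean reached 1 FPKM. GC content was that of the longest transcript in GENCODE 29 (GRCh38, 99.1% of genes matched), also used for exon overlaps, and promoter windows were those of RefSeq on GRCh38.p14, so that no coordinate was set against the GRCh37 values. A symbol was found for 11434 genes. The pathway genes named are, per list, up to 3 called genes in each direction of the trend and up to 3 in the rhythm, and for each gene of the family the 3 genes with the highest r. Some genes of the lists are not reported here by name. VDAC1, HUWE1 and CASP8 were named after their values were seen. The 9 genes, the lists and the tests were chosen with earlier results of these data known.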

Additional observations from a re-analysis of the deposited data

How the results depend on the processing

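With 1 sample per time point there is no replicate error, depth is unknown, and p-values treat time points as independent. No paired analysis was possible because each time point has 1 sample, so that fewer than 2 replicate numbers are shared, and the fit that pairs the days by hour is not a pairing of replicates.

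The number of family genes with a trend was 4 without 6 h, 16 h, 18 h and 32 h and 4 without 0 h, 2 h, 16 h and 18 h (the latter, like the removal of 0 h and 2 h alone, chosen after seeing the data), and 1 after centring, with the GC trend removed, without cosine terms and with days paired by hour, and 1 to 3 when each time point was left out in turn. Over all genes the count of 2734 became 4107 on cleaned scores, 4785 with 16 h and 18 h interpolated (PCHIP), 1415 at a mean of at least 10 FPKM, 4675 without 0 h, 2 h, 16 h and 18 h, and 1802 with days paired. Slopes that changed sign were those of MCL1 (0.04 without 0 h and 2 h, 0.08 also without 16 h and 18 h, and -0.10 to 0.01 leaving out 1 time point), BAX (-0.04 without 16 h and 18 h and without 6 h and 32 h too, -0.05 with PCHIP and -0.05 without 0 h, 2 h, 16 h and 18 h) and BAK1 (-0.01 in 3 of these settings). The cause was not tested.

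The number of family genes with a rhythm was 0 without 6 h, 16 h, 18 h and 32 h, on cleaned scores, with upper-quartile scaling, with the GC trend removed, at periods of 20 h and 28 h and with the limma cosine, and 0 to 1 when single time points were left out. Over all genes the count of 1602 became 911 with the GC trend removed, 415 at 20 h and 419 at 28 h, and 970 to 1847 when single time points were left out; 4 h, 6 h, 8 h and 10 h each moved it by over 1.5 times. Of the pathway genes, 12 in place of 7 were called without 16 h and 18 h, beside 2084 in place of 1602 of all genes.

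At 16 h and 18 h, 4 family genes were off the line with upper-quartile scaling, 4 at a 1.5-fold threshold, 1 with the GC trend removed and 1 at a mean of at least 10 FPKM, a filter that drops BAD. Over all genes the count was 1140 with the GC trend removed and 4993 at 1.5-fold. Scaling shifted the median over all genes there from 0.14 to 0.02 (centring) and -0.06 (upper quartile). At 0 h and 2 h, 0 family genes were past 2-fold. Of the tested slopes and taus, 194 of 230 values under other settings kept their direction and side of the threshold, and 36 did not. Leaving out 1 time point, 414 of 432 did and 18 did not. Most of these values belong to results that were not called at first. Of the called ones, the BID slope kept its call in 13 of 13 other settings, the BCL2L1 slope in 4 of 13 and the MCL1 rhythm in 6 of 13.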
